A study of Mus musculus with 42 samples.

Results

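The genes described here are the WNT ligands, their receptors and the secreted proteins that modulate them, taken as a whole family by symbol and not by behaviour. They are the 19 *Wnt* ligands, 2 genes for ligand secretion (*Wls* and *Porcn*), 10 *Fzd* receptors, 5 other receptors (*Lrp5*, *Lrp6*, *Ror1*, *Ror2* and *Ryk*), 4 *Rspo* genes and 11 secreted antagonists or related genes (*Sfrp*, *Dkk*, *Dkkl1*, *Frzb* and *Wif1*). This gave 51 genes of the 21664 protein-coding genes and of the 56953 genes of the count table. Their RNA was counted in 42 libraries, which pair both sides of the heart field in 21 mouse embryos at stage E8.5i, when the direction of heart looping can be scored. Of the embryos, 5 were *Ccdc40*+/+ with rightward looping, 11 were *Ccdc40*lnks/lnks with rightward looping and 5 were *Ccdc40*lnks/lnks with inverted looping. In this order 4, 6 and 3 embryos were male and the others female. CCDC40 is needed for motile cilia to beat, and the lnks allele is a point mutation. The question was whether genes of the heart field are sided differently in mutants whose hearts loop one way or the other. The rightward mutants were defined by looping alone. The study sorts them, by clustering these same libraries, into a class like the wild types (situs solitus) and a heterotaxy class. The labels do not give the class, so that it was not split here and each value of the rightward mutants is an average over both. The field was cut from the dorsal pericardial wall, with neighbouring tissue, by hand.

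WNT ligands are lipid-modified by PORCN and carried to the cell surface by WLS. They bind Frizzled receptors, either with LRP5 and LRP6 to stabilise beta-catenin or with ROR1, ROR2 and RYK in signalling that does not need it. R-spondins keep Frizzled receptors on the membrane, whereas SFRP, FRZB and WIF1 bind ligands and most DKK proteins block LRP5 and LRP6. In the early heart, beta-catenin signalling is known to act in progenitors, *Wnt2* marks progenitors at the venous pole, and *Wnt11* is known for beta-catenin-independent signalling during cardiac differentiation.

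Libraries held 36073684 to 62970327 counts, with a median of 43458644, and levels are given as CPM, the count scaled to the size of the library. Labels were checked on the mutated gene. *Ccdc40* itself was at 15.2 to 26.5 CPM in the wild-type libraries and at 8.83 to 14.8 CPM in the mutant ones. Markers of the heart field were present, as 7 genes including *Isl1* and *Tbx1* summed to between 198 and 602 CPM, with none at 0. Heart muscle, neural tube, neural crest and yolk sac endoderm markers were present too and none of their genes was at 0 throughout a group. Embryo 2_2 among the rightward mutants and embryo 10_1 among the wild types stood apart. The 6 heart muscle markers summed to 195 CPM on the right and 650 CPM on the left of 2_2, and to 553 CPM on the right of 10_1, which were the 3 lowest of the 42 libraries. The inverted mutant 10_3 had yolk sac endoderm markers higher on the right by a mean of 5.24 on the log2 scale. Values were also taken without 2_2 and 10_1, a choice made after seeing the data. In bulk tissue, fewer cells of a type and less RNA per cell cannot be told apart.

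Levels were compared between genes as CPM per kb of exon, averaged over the 42 libraries. Exon length joined all transcripts of a gene and was 12563 bases for *Wnt2* against 2815 for *Wnt6*. The order of genes depends on this length, which the SD over embryos does not cover. In CPM alone *Wls* (205) and *Wnt2* (182) exceeded *Sfrp5* (145), and *Wnt6* was at 27.2. Likewise *Fzd3* (146) exceeded *Fzd4* (129) and *Fzd2* (72.3), and *Lrp6* (47.9) exceeded *Lrp5* (34.3). The family spanned more than 3 orders of magnitude, with 8 genes over 10 CPM per kb, 17 between 1 and 10, and 26 at or under 1. Secreted antagonists made up 48.0% of the summed level and ligands 13.2%. *Sfrp5*, an antagonist of the venous pole and foregut, was the highest gene per kb with 76.4 ± 20.4 CPM per kb (SD over 21 embryos). It was ahead of *Sfrp1* with 26.5 ± 5.90 and *Sfrp2* with 12.5 ± 4.79. *Sfrp5* was above *Sfrp1* in 20 of 21 embryos, whereas *Sfrp2* and *Frzb* differed by less than their spread.

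Among the ligands, *Wnt2* had 14.5 ± 4.21 CPM per kb, *Wnt6* 9.67 ± 2.47 and *Wnt5a* 5.97 ± 0.775. *Wnt2* was above *Wnt6* in 17 of 21 embryos, which did not exceed the spread of their ratio, and both were followed by a drop to *Wnt9b* with 1.33. The other 15 ligands lay at or under 1.21 CPM per kb, and from *Wnt2b* to *Wnt7a* no neighbours in the order differed by more than 1 SD of their ratio. *Wls* had 15.1 ± 1.14 CPM per kb against 1.66 ± 0.510 for *Porcn*.

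*Fzd2* (19.7 ± 1.41 CPM per kb) and *Fzd4* (18.8 ± 1.74) led the receptors and did not differ beyond their spread, as *Fzd2* was higher in 12 of 21 embryos. *Fzd3* (11.1 ± 1.70) and *Fzd7* (7.66 ± 0.867) came next and were separated in 21 of 21 embryos. The co-receptors *Lrp5* and *Lrp6* were close, at 3.49 ± 0.346 and 3.11 ± 0.271, although *Lrp5* was higher in 20 of 21 embryos. *Ror2* (9.47 ± 1.16) and *Ror1* (7.78 ± 1.47) exceeded both, and *Rspo3* (1.59 ± 0.422) led the R-spondins, above *Rspo1* (0.709) and *Rspo4* (0.245).

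The spread over libraries differed between genes. Among the receptors, the highest library exceeded the lowest by 1.45-fold for *Fzd2* and 1.56-fold for *Lrp6*, but by 4.26-fold for *Fzd1*, 14.3-fold for *Fzd10* and 72.8-fold for *Fzd9*. It did so by 1.56-fold for *Wls*, 92.8-fold for *Wnt2* and 48.9-fold for *Sfrp5*. The lowest values of both *Wnt2* and *Sfrp5* were on the right of embryo 2_2, and in the 40 libraries without this embryo *Wnt2* ranged from 80.8 to 280 CPM (3.46-fold) and *Sfrp5* from 67.3 to 227 CPM (3.37-fold). *Wnt1*, *Wnt3a*, *Wnt8a*, *Wnt8b*, *Wnt10a*, *Wnt10b* and *Dkk4* had a count of 0 in at least 1 library, which allows up to 3 counts there and covers counting error only.

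**Figure D1:**
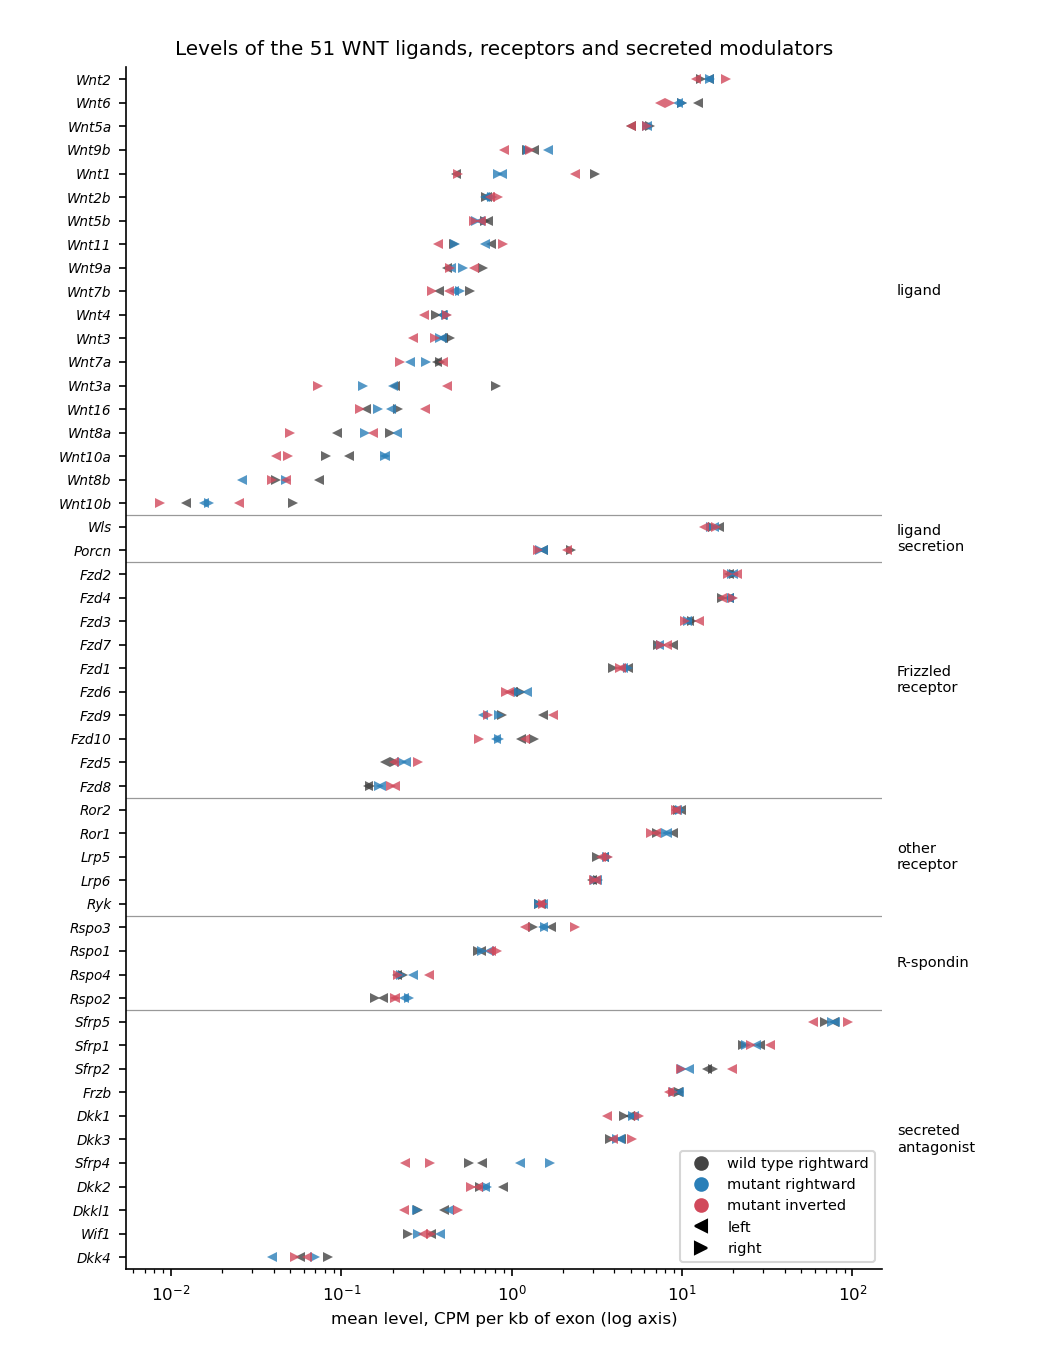
Mean level of each of the 51 genes in CPM per kb of exon, on a log axis, by role. Triangles pointing left or right are the left or right heart field, and colours are the 3 groups. *Sfrp5*, *Sfrp1*, *Fzd2* and *Fzd4* lie highest, and groups nearly coincide for *Fzd2*, *Lrp6* and *Ryk*.

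The level of each side was then compared between groups, with sex in the model. By the quasi-likelihood test of edgeR, with p-values adjusted over all genes after Benjamini and Hochberg, 0 of 50 members passed an adjusted p of 0.05 in each of 4 comparisons. On the left of inverted against rightward mutants, where 0.0121% of all genes were called, 13 of 50 members had an unadjusted p under 0.05 against 7.89% of all genes, and DESeq2 called 1 member, *Wnt11*, against 0.419%. The unadjusted count moved with single embryos, to 9 of 50 without 10_3 (1899 of 25327 genes) and 17 of 50 without 19_4 (2330 of 24755 genes). On the right of the same groups 0.00805% of all genes were called, 6 of 50 members had an unadjusted p under 0.05 against 4.26%, and DESeq2 called 0 members against 0.0724%. Rightward mutants against wild types gave 2 of 50 members on the left at an unadjusted p under 0.05 (background 5.02%) and 0 of 50 on the right (3.28%). There edgeR called 0.0242% of all genes on the left and 0.0121% on the right, and DESeq2 called 0 members on either side against 0.0805% and 0.0241%. For *Wnt11*, inverted mutants differed from rightward ones by -0.91 ± 0.24 (log2) on the left (adjusted p = 0.397, edgeR). On the right the difference was 0.99 ± 0.27 (unadjusted p = 0.00151, edgeR). The former p-value is adjusted and the latter is not, and neither difference passed in edgeR after adjustment.

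Asymmetry was tested as right over left within embryos, and values below are log2 fold changes with their standard errors unless said otherwise. In wild types 0 of 49 tested members passed, as did 0% of all genes. An unadjusted p under 0.05 was reached by 3 of 49 members (6.12%) against 2.76% of all genes, and DESeq2 called 1 member, *Sfrp1*, against 0.0863% of all genes. The 3 members were *Sfrp1* (-0.38 ± 0.08), *Fzd7* (-0.29 ± 0.08) and *Dkk2* (-0.61 ± 0.22), and each was higher on the left in 5 of 5 embryos. Their number depended on the fit. It was 5 of 49 in edgeR without 10_1 (646 of 23439 genes) and 7 of 49 by DESeq2 (968 of 23182 genes). *Sfrp1* read 151, 191, 121, 122 and 111 CPM on the left of embryos 10_1, 17_7, 22_4, 7_1 and 8_1 and 99.5, 174, 93.6, 84.1 and 96.2 CPM on the right. The sides overlapped across embryos, and the order held within each. *Sfrp1* and *Fzd7* are on the list of WNT pathway genes that the study picked out from these samples, as are *Wnt2*, *Wnt6*, *Wnt7a*, *Wnt11*, *Wnt16*, *Wls*, *Porcn*, *Fzd4*, *Fzd10*, *Rspo3*, *Sfrp2*, *Sfrp5*, *Dkk1* and *Dkkl1*, so that their directions here are not independent evidence.

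In rightward mutants 0 of 49 members passed, against 0.0263% of all genes. An unadjusted p under 0.05 was reached by 5 of 49 members (10.2%) against 3.59% of all genes, and DESeq2 called 0 members against 0.14%. The 5 were *Dkkl1* (-0.55 ± 0.18), *Wnt11* (-0.68 ± 0.24), *Sfrp1* (-0.21 ± 0.09), *Wnt9b* (-0.32 with an unadjusted p of 0.038) and *Wnt8b* (0.94 with an unadjusted p of 0.034). In edgeR without 22_1 such a p was reached by 2 of 49 members and by 762 of 22868 genes. No member pointed the same way in all 11 embryos. The median over the members was -0.06, beside 0.00 over all genes tested, with 15 members above 0 and 34 below. Without embryo 2_2 the count stayed at 0, while the median over the members was -0.02, with 22 above 0 and 27 below.

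In inverted mutants several members were sided. Here 6 of 48 tested members (12.5%) passed, against 2.04% of all genes. The right was higher for 4 (background 1.72%), namely the ligands *Wnt11* and *Wnt2*, the R-spondin *Rspo3* and the antagonist *Sfrp5*. The left was higher for 2 (background 0.318%), the antagonist *Sfrp2* and the receptor *Fzd10*. An unadjusted p under 0.05 was reached by 20 of 48 members (41.7%) against 15.1% of all genes, in equal parts to the right and to the left, and DESeq2 called 13 members against 7.64% of all genes. The median over the 48 members was 0.02, beside -0.01 over all genes.

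*Wnt11* lies on chr7:98484319-98504402 (plus strand, GRCm39, as are all positions here). It read 1.60, 2.43, 1.67, 1.68 and 2.02 CPM on the left of embryos 10_3, 18_2, 2_7, 32_2 and 4_6. It read 3.09, 5.37, 4.42, 5.56 and 3.99 CPM on their right. All right values lay above all left values, a fold change of 1.25 ± 0.16 on the log2 scale (2.38-fold, adjusted p = 0.0101, edgeR, right higher in 5 of 5 embryos). In rightward mutants *Wnt11* was at 1.77, 3.62 and 4.88 CPM on the left against 0.572, 2.02 and 3.75 CPM on the right (lowest, median and highest of 11), and the right was lower in 10 of 11 embryos. In wild types it was at 6.26, 4.00, 2.205, 2.204 and 4.54 CPM on the left of 10_1, 17_7, 22_4, 7_1 and 8_1 and at 2.075, 3.34, 2.97, 1.58 and 1.71 CPM on the right, lower on the right in all but 22_4. Its fold change was -0.68 ± 0.24 in rightward mutants and -0.51 ± 0.19 without 2_2, and in wild types it was -0.67 ± 0.31 and -0.43 ± 0.29 without 10_1. With each wild type left out it ran from -0.94 to -0.43.

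*Wnt2*, the most abundant ligand, lies on chr6:17985468-18031892 (minus strand). It read 122, 190, 161, 119 and 171 CPM on the left of the inverted mutants, in the embryo order above. Its right values were 178.5, 243, 216, 240 and 257 CPM, which overlapped the left ones only through the left of 18_2. The fold change was 0.59 ± 0.09 (1.51-fold, adjusted p = 0.0166, edgeR). In rightward mutants the ranges were 27.7 to 267 CPM on the left against 3.02 to 280 CPM on the right, with medians of 189.5 and 199 CPM, and the fold change was -0.15 ± 0.22, which became 0.04 ± 0.07 without 2_2. In wild types it was -0.16 ± 0.25, and 0.12 ± 0.15 without 10_1. It ran from -0.35 to 0.12 with each wild type left out.

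*Rspo3* lies on chr10:29327285-29411876 (minus strand). It read 3.02, 5.21, 7.69, 3.705 and 5.77 CPM on the left against 6.45, 10.9, 11.9, 10.6 and 9.66 CPM on the right of the inverted mutants. The sides overlapped between embryos, but the right was higher within each (1.01 ± 0.15, 2.02-fold, adjusted p = 0.0149, edgeR). In rightward mutants the medians of 6.24 CPM on the left against 6.38 CPM on the right were nearly equal (-0.01 ± 0.16, and 0.06 ± 0.15 without 2_2). In wild types the fold change was -0.30 ± 0.24, and -0.10 ± 0.22 without 10_1. It ran from -0.53 to -0.10 with each wild type left out.

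*Sfrp5* lies on chr19:42186410-42190691 (minus strand). It read 75.2, 121, 129, 109 and 126 CPM on the left against 175, 183, 160, 173 and 201 CPM on the right, with no overlap. Its fold change was 0.70 ± 0.11 (1.62-fold, adjusted p = 0.0209, edgeR). In rightward mutants it was -0.14 ± 0.17, and -0.02 ± 0.14 without 2_2. In wild types it was -0.19 ± 0.31 and turned to 0.15 ± 0.20 without 10_1. With each wild type left out it ran from -0.46 to 0.15.

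The related antagonist *Sfrp2* (chr3:83673481-83681623, plus strand) had the other side, with 61.7, 22.2, 27.2, 68.6 and 47.6 CPM on the left against 41.9, 14.04, 18.65, 19.5 and 19.8 CPM on the right. The sides overlapped across embryos, and the left was higher in 5 of 5 (-0.96 ± 0.19, 1.94-fold, adjusted p = 0.0444, edgeR). *Fzd10* (chr5:128677908-128681157, plus strand) read 3.53, 4.46, 3.90, 4.73 and 2.745 CPM on the left against 2.92, 2.01, 2.09, 2.22 and 1.26 CPM on the right. Its sides overlapped only through 10_3 and 4_6 (-0.89 ± 0.17, 1.86-fold, adjusted p = 0.0416, edgeR). In rightward mutants the fold changes were -0.16 ± 0.15 for *Sfrp2* and -0.02 ± 0.18 for *Fzd10*, and -0.21 ± 0.15 and -0.03 ± 0.20 without 2_2. In wild types they were -0.03 ± 0.33 and 0.11 ± 0.45, and with each embryo left out they ran from -0.41 to 0.18 and from -0.27 to 0.49, with the fit without 10_1 at the low end of both. The exons of *Fzd10* share 30.6% of their bases with the antisense gene *Fzd10os*, and those of *Sfrp2* share 21% with *Gm26771*. The counting is not stated to use strand, so reads of both genes of each pair cannot be told apart.

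**Figure D2:**
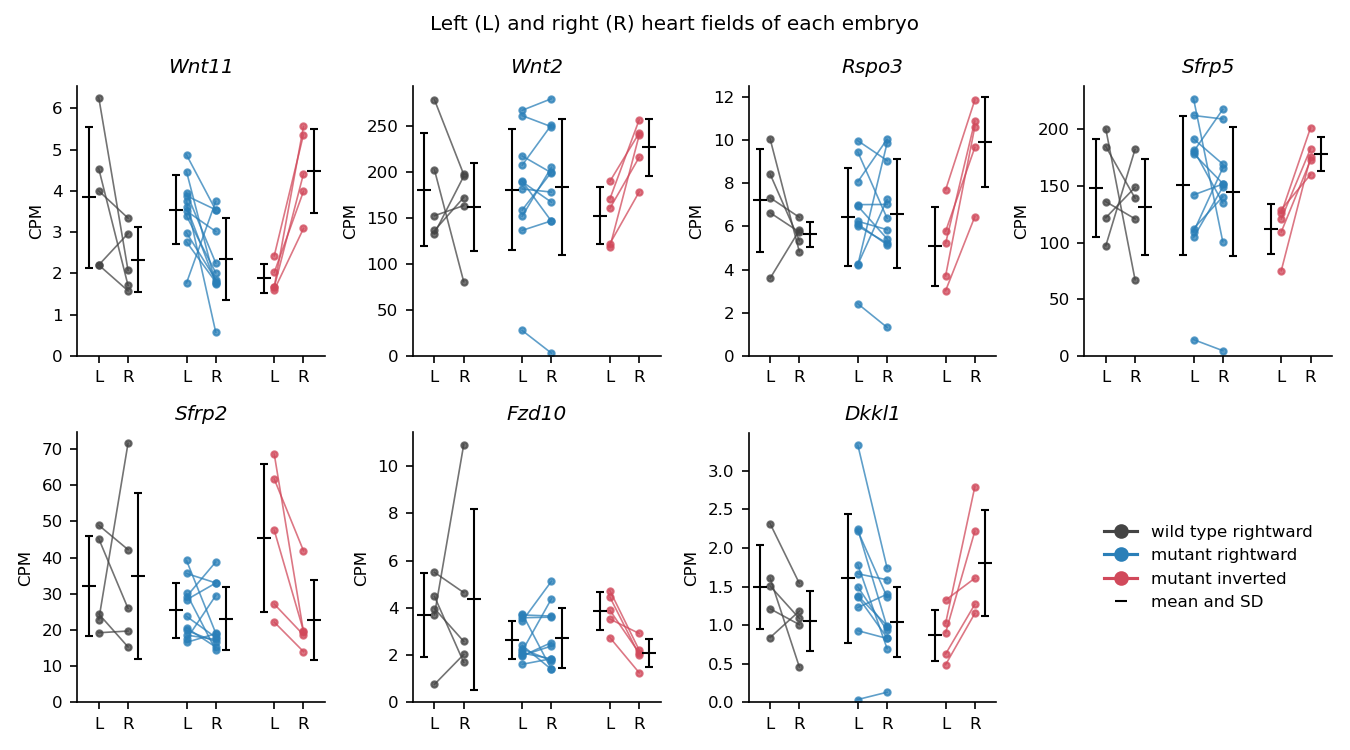
CPM of the 7 genes that passed a test, on the left (L) and right (R) of every embryo, with lines joining the sides of 1 embryo and bars for mean and SD. Red lines of the inverted mutants all slope up for *Wnt11*, *Wnt2*, *Rspo3*, *Sfrp5* and *Dkkl1* and all slope down for *Sfrp2* and *Fzd10*.

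Other members of the inverted mutants did not pass in edgeR with the filter on low counts and all 5 embryos. *Dkkl1*, a DKK-like gene expressed mainly in testis in the adult, missed the threshold with 1.05 ± 0.22 (adjusted p = 0.0532), at 0.489 to 1.32 CPM on the left against 1.15 to 2.79 CPM on the right. *Wnt16* had -1.37 ± 0.34 (adjusted p = 0.0985), *Porcn* -0.55 ± 0.13 (adjusted p = 0.075) and *Wnt7a* -0.91 ± 0.24 (adjusted p = 0.111), each lower on the right in 5 of 5 embryos. These 4 were among the 13 members that DESeq2 called. With no filter *Wnt16* (adjusted p = 0.0194), *Dkkl1* (adjusted p = 0.017) and *Porcn* passed in edgeR too. *Dkkl1* also passed with at least 10 counts in every library (adjusted p = 0.0407) and without 2_7 (adjusted p = 0.0292). The abundant receptors had small values, from -0.24 ± 0.09 for *Fzd3* to 0.22 ± 0.07 for *Fzd4*. DESeq2 nonetheless called *Fzd4*, as it did *Wls* and *Dkk1*. *Lrp5* (0.14 ± 0.11), *Ror1* (-0.11 ± 0.10) and *Ror2* (0.00 ± 0.19) lay near 0.

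The 6 calls rest on 5 embryos, and among them *Wnt11* was the 1 member called with each embryo left out (adjusted p from 0.0148 to 0.0457). Without 10_3 all 6 passed, and so did the ligand *Wnt5a*, which had 0.32 ± 0.14 over the 5 embryos (adjusted p = 0.316, edgeR) and a ratio of -0.36 in 10_3. *Wnt2* was lost without 4_6 (adjusted p = 0.0573). *Rspo3* was lost without 18_2 or 32_2, at an adjusted p of up to 0.0596. *Sfrp5* was lost without 18_2, 32_2 or 4_6, at up to 0.0902. With 1 embryo left out, *Sfrp2* and *Fzd10* passed only without 10_3, and were lost without 18_2, 2_7, 32_2 or 4_6, at up to 0.128 and 0.174. A fit of all 42 libraries, which shares the spread of the other groups, called 0 of the members, with *Wnt11* at an adjusted p of 0.0843 and *Rspo3* at 0.0505. Over all alternatives the adjusted p ran from 1.70e-08 to 0.148 for *Wnt11*, from 6.09e-09 to 0.135 for *Rspo3*, from 3.16e-14 to 0.392 for *Wnt2* and from 5.44e-06 to 0.242 for *Sfrp5*, each with DESeq2 at the low end. It ran from 0.000805 to 0.215 for *Sfrp2* and from 0.000311 to 0.396 for *Fzd10*.

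**Figure D3:**
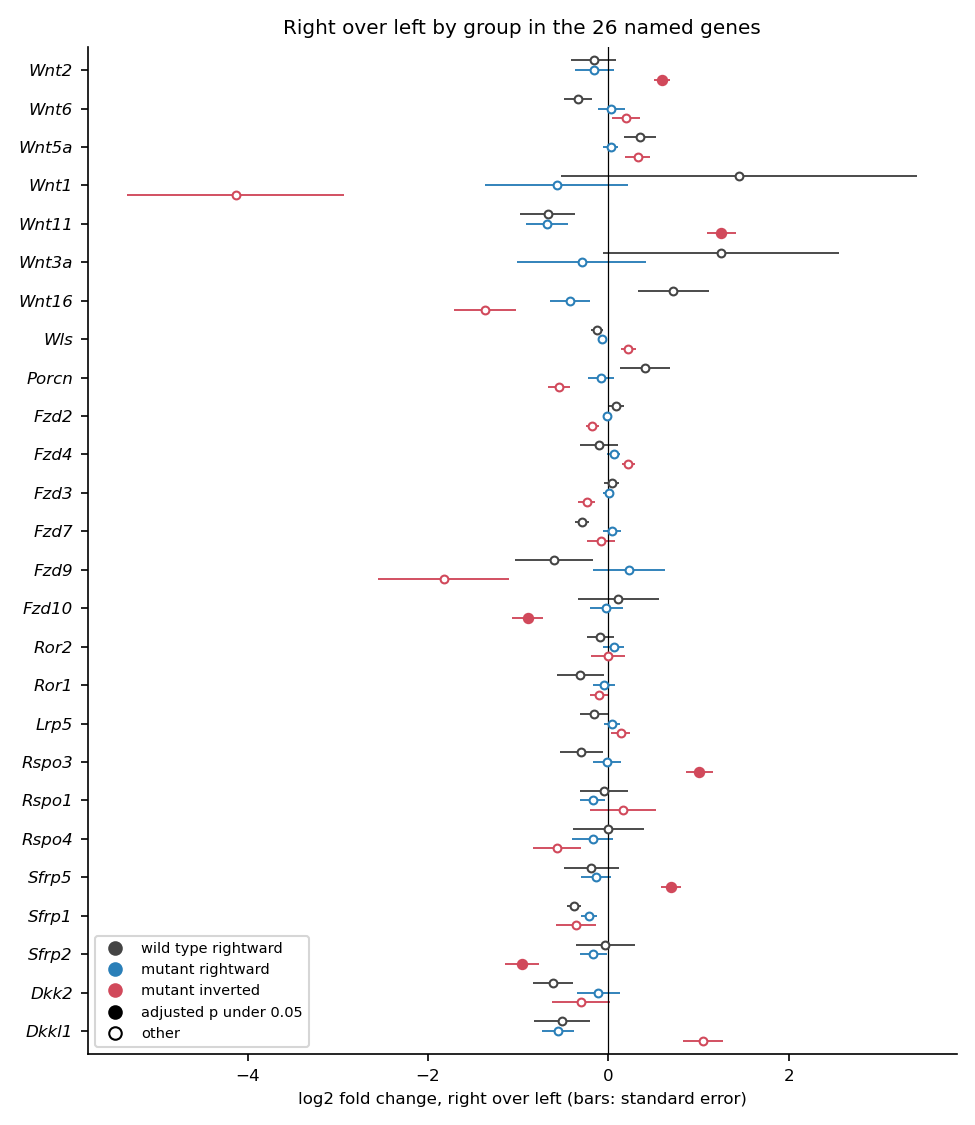
Log2 fold change of right over left with its standard error in the 26 named genes, for the 3 groups. Filled points passed an adjusted p of 0.05, and all 6 of them belong to the inverted mutants, whereas open points far from 0, such as *Wnt1* and *Fzd9* in inverted mutants, have wide errors.

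Whether asymmetry differed between groups was tested directly as the interaction of side and group. Between inverted and rightward mutants 2 of 51 members passed (3.92%), against 0.311% of all genes, with 15 of 51 (29.4%) at an unadjusted p under 0.05 against 10.5% of all genes. The 2 were *Wnt11* (1.92 ± 0.39, adjusted p = 0.0317, edgeR) and *Dkkl1* (1.59 ± 0.33, adjusted p = 0.0361, edgeR). DESeq2 called 4, adding *Rspo3* and *Wnt7a*, against 1.73% of all genes. The 5 other members that passed within inverted mutants did not pass here. Their differences were 1.01 ± 0.28 for *Rspo3*, 0.83 ± 0.33 for *Sfrp5*, 0.74 ± 0.36 for *Wnt2*, -0.80 ± 0.33 for *Sfrp2* and -0.88 ± 0.40 for *Fzd10*. Of these, *Rspo3* passed when the rightward mutant 19_4 was left out (adjusted p = 0.036), an embryo in which its right was above its left by 1.22. In edgeR without 18_2, 9 of 51 members had an unadjusted p under 0.05, as did 2130 of 26782 genes.

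*Dkkl1* (chr7:44856027-44865161, minus strand) was lower on the right in 9 of 11 rightward mutants, with 0.0377, 1.49 and 3.33 CPM on the left against 0.132, 0.974 and 1.74 CPM on the right (lowest, median and highest). Its counts were low, with a mean of 58.5 per library, and embryo 2_2 had 2 counts on the left and 6 on the right. In wild types its fold change was -0.51 ± 0.31, and -0.23 ± 0.24 without 10_1. It ran from -0.75 to -0.23 with each wild type left out. Without embryos 2_2 and 10_1, left out after seeing the data, both differences passed with 1.75 ± 0.32 for *Wnt11* (adjusted p = 0.00893) and 1.66 ± 0.27 for *Dkkl1* (adjusted p = 0.00432). Yet *Wnt11* was lost when 1 of 10_3, 17_1, 18_1, 18_2, 22_1, 23_3, 2_7, 32_2, 3_7 or 4_6 was left out, at an adjusted p of up to 0.143. *Dkkl1* was lost without 1 of 10_3, 17_1, 18_1, 18_2, 19_6, 22_1, 23_3, 32_2, 32_3, 3_7 or 4_6, at up to 0.150. The fold changes themselves stayed between 1.74 and 2.08 for *Wnt11* and between 1.48 and 1.80 for *Dkkl1* in these fits. Over all alternatives the adjusted p ran from 0.000103 to 0.307 for *Wnt11* and from 0.000313 to 0.467 for *Dkkl1*.

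Inverted mutants against wild types gave 0 of 51 members, against 0.513% of all genes. An unadjusted p under 0.05 was reached by 17 of 51 members (33.3%) against 13.6% of all genes, and DESeq2 called 8 members (*Dkkl1*, *Porcn*, *Rspo3*, *Wls*, *Wnt1*, *Wnt11*, *Wnt16* and *Wnt9a*) against 3.46%. In edgeR the difference of *Wnt11* was 1.91 ± 0.46 (adjusted p = 0.0615), that of *Dkkl1* 1.55 ± 0.39 (adjusted p = 0.0717), that of *Wnt16* -2.10 ± 0.53 (adjusted p = 0.0738) and that of *Rspo3* 1.30 ± 0.33 (adjusted p = 0.077). All 4 passed when the wild type 22_4 was left out, with adjusted p from 0.0158 to 0.0316, in a fit that called 641 of 26800 genes, and *Dkkl1* also passed without 2_7 (adjusted p = 0.0408). In the other fits with 1 embryo left out 0 of the 4 passed, at up to 0.255. In the fit without 10_1, 10 of 51 members had an unadjusted p under 0.05 in edgeR, as did 2405 of 26800 genes. Without 2_2 and 10_1 the differences were 1.67 ± 0.39 for *Wnt11* (adjusted p = 0.0845), 1.27 ± 0.32 for *Dkkl1* (adjusted p = 0.14), -1.70 ± 0.40 for *Wnt16* (adjusted p = 0.0966) and 1.11 ± 0.32 for *Rspo3* (adjusted p = 0.197), in a fit that called 47 genes. Rightward mutants against wild types gave 0 of 51 members by edgeR and by DESeq2, as they gave 0% of all genes by both. There 1 of 51 members (1.96%), *Wnt16*, had an unadjusted p under 0.05, against 3.04% of all genes. The differences share the inverted mutants, the rightward mutants or the wild types between them, and all come from the same fit of the 42 libraries. They are not independent of each other.

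**Figure D4:**
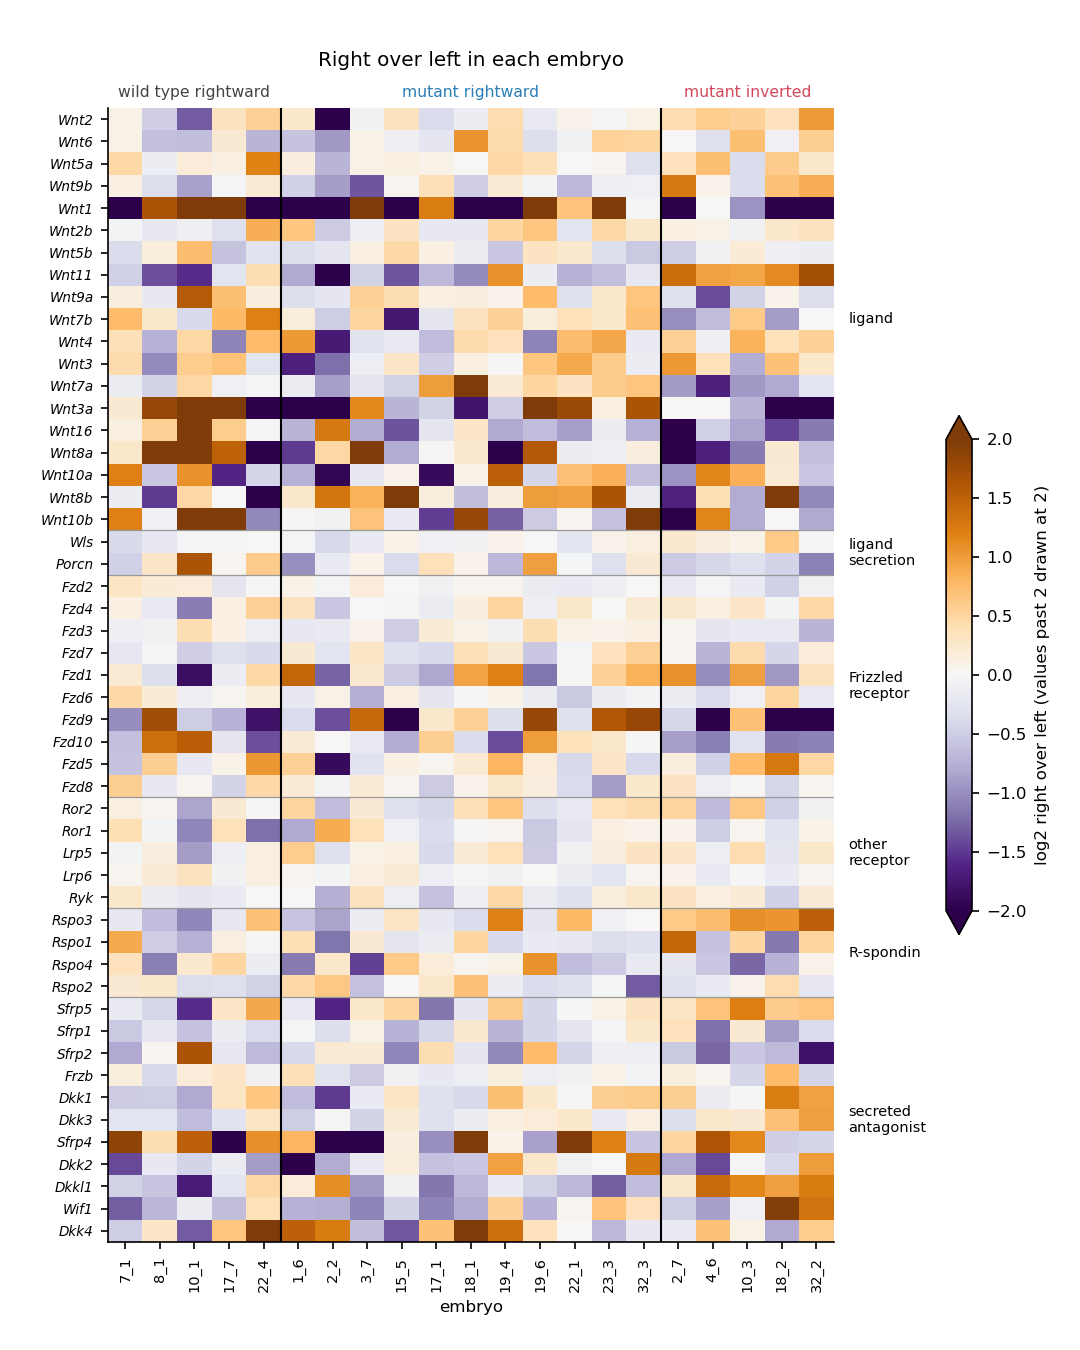
Log2 right over left of the 51 genes (rows, by role) in each of the 21 embryos (columns, by group), with values past 2 drawn at 2. The row of *Wnt11* is right-sided in all 5 inverted mutants and left-sided in most others, whereas *Wnt1* and *Wnt3a* change side from embryo to embryo in wild types and rightward mutants.

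The largest ratios in single embryos were those of *Wnt1* and *Wnt3a*, ligands of the dorsal neural tube. *Wnt1* read 11.2, 2.03, 0.961, 14.02 and 0 CPM on the left of the inverted mutants 10_3, 18_2, 2_7, 32_2 and 4_6 and 5.72, 0.0240, 0.0156, 0 and 0 CPM on the right. In wild types the right of 10_1 had 25.6 CPM and its left 0.173 CPM, while 22_4 had 3.36 CPM on the left against 0.179 CPM on the right. With the filter on low counts neither gene passed in edgeR, and *Wnt3a* was not tested within inverted mutants. With no filter both were tested and *Wnt1* passed there. Their fitted fold changes depend on the libraries at 0. Exons of *Wnt1* and *Wnt10b* share bases, 20.6% of those of *Wnt1*.

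Marker lists were sided to different degrees in inverted mutants. None of the neural crest, paraxial mesoderm and endothelium markers passed there, with medians of -0.25, -0.19 and 0.20. In inverted mutants 4 of 6 heart muscle markers (*Myl7*, *Myh6*, *Tnnt2* and *Actn2*) passed as higher on the right, and the 6 summed to values from 789 to 1514 CPM on the left against from 1389 to 2851 CPM on the right. In rightward mutants the sum ranged from 650 to 3067 CPM on the left against from 195 to 3362 CPM on the right, and in wild types from 1011 to 2685 and from 553 to 2256 CPM. *Tbx5* and *Osr1*, 2 of the 6 markers of sinus venosus and cardiopulmonary mesoderm, passed as higher on the right too (0.74 ± 0.09 and 0.60 ± 0.10). So did *Nkx2-5* (1.06 ± 0.14) and *Mef2c* (0.73 ± 0.09), 2 of the 7 heart field markers, and *Hhex* (1.04 ± 0.19), 1 of the 7 foregut endoderm markers. The heart field sum was 268 to 421 CPM on the left against 402 to 580 CPM on the right. All 5 yolk sac endoderm markers had positive values with a median of 0.57, and 0 passed. Their mean ratio was 5.24 in 10_3, but -0.73 in 2_7 and -1.68 in 4_6. All 5 blood markers had negative values with a median of -0.29, and 0 passed. Of 6 neural tube markers, *Pax6* (-2.02 ± 0.36) and *Olig2* (-1.77 ± 0.35) passed as higher on the left in inverted mutants. The neural tube sum was 82.5 to 137 CPM on the left against 44.3 to 89.3 CPM on the right, against 34.1 to 103 and 32.8 to 114 CPM in rightward mutants. None of these markers was at 0 throughout a group, and their part in the sides of the members was not tested.

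Within the 11 rightward mutants, where no member was called, the ratios of the 7 called genes were set against marker lists. These were the mean ratios of the heart muscle and of the neural tube markers, 14 relations in all. The other lists were not set against the genes, and p-values were adjusted over these 14 relations alone. *Wnt2* went with the heart muscle markers (Pearson r = 0.808, permutation p = 0.00049, adjusted 0.00343, Spearman rho = 0.755, permutation p = 0.00969, adjusted 0.0507), and r was 0.592 without the 2 embryos farthest from the median, 19_4 and 2_2. By rank *Wnt2* also went against the neural tube markers, with the largest rho in size of the 14 (rho = -0.791, permutation p = 0.00531, adjusted 0.0507), at r = -0.251 (permutation p = 0.424, adjusted 0.495) and r = -0.261 without 19_4 and 19_6. *Sfrp2* went with the neural tube markers (r = 0.893, permutation p = 0.00019, adjusted 0.00266, rho = 0.746, permutation p = 0.0109, adjusted 0.0507), and r was 0.772 without 19_4 and 19_6. *Wnt11* had r = 0.825 with the heart muscle markers (permutation p = 0.0108, adjusted 0.0302) but rho = 0.364 (permutation p = 0.275, adjusted 0.385) and r = -0.0965 without 19_4 and 2_2, so that this relation rested on those embryos. Pearson r passed an adjusted p of 0.05 in 6 of the 14 relations and Spearman rho in 0. The other 3 of the 6 were *Rspo3* with heart muscle (r = 0.776, adjusted permutation p = 0.0217, rho = 0.482, adjusted permutation p = 0.242), *Sfrp5* with heart muscle (r = 0.701, adjusted permutation p = 0.0405, rho = 0.464, adjusted permutation p = 0.242) and *Fzd10* with neural tube (r = 0.792, adjusted permutation p = 0.0187, rho = 0.645, adjusted permutation p = 0.124). Without the same 2 embryos as above for each list, r was 0.285, 0.137 and 0.491. By contrast *Dkkl1* with heart muscle, which did not pass, went from r = -0.225 to r = 0.684 without 19_4 and 2_2. Both measures of each relation come from the same libraries.

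**Figure D5:**
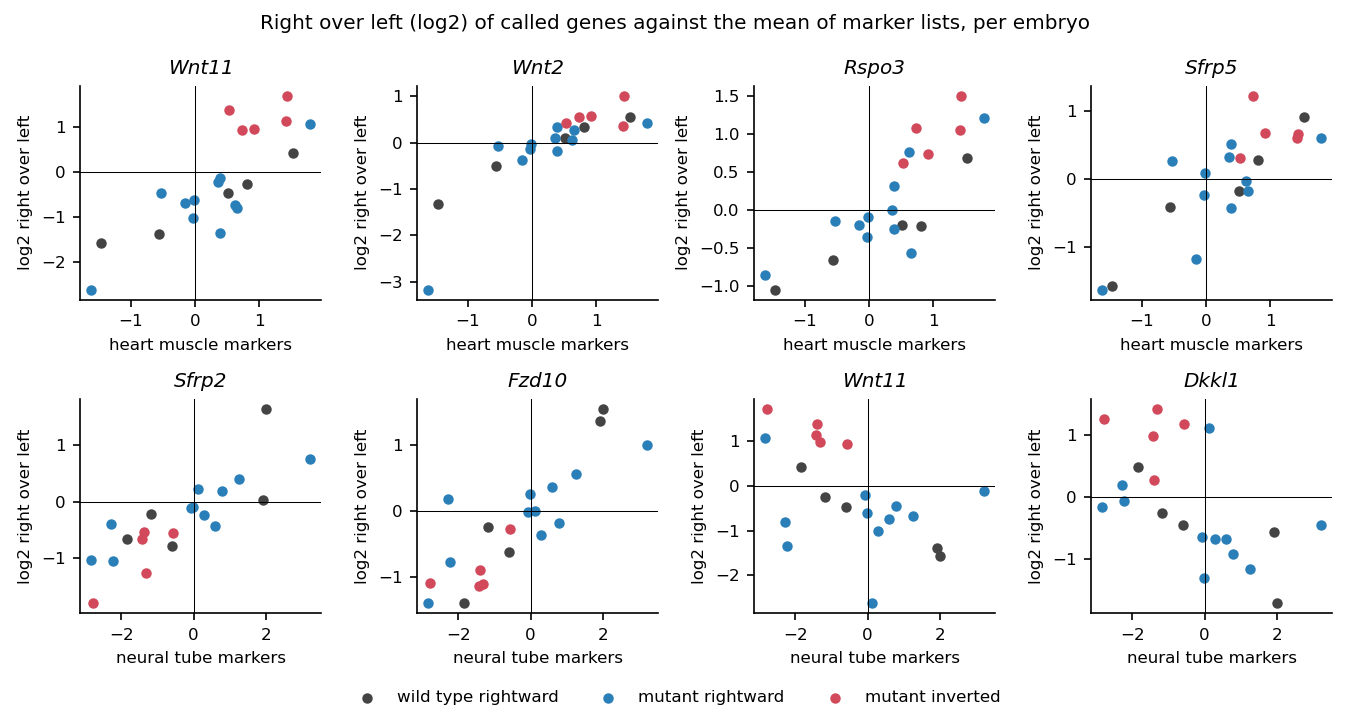
Log2 right over left of called genes against the mean log2 ratio of the heart muscle markers (upper row) or of the neural tube markers (lower row) in each embryo. Inverted mutants (red) all lie right of 0 for heart muscle and left of 0 for neural tube, and their *Wnt11* ratios of 0.93 to 1.70 lie above those of all other embryos except the rightward mutant 19_4, at 1.06.

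The 60 other tested genes of the pathway were examined from lists of receptor turnover, cytoplasmic, nuclear, planar cell polarity and target genes. In wild types and in rightward mutants 0 of 60 passed. In inverted mutants 1 passed as higher on the right, where 1.72% of all genes did, and 2 as higher on the left, against 0.318%. The first was *Ccn4*, a secreted WNT target (1.01 ± 0.18, adjusted p = 0.0324, edgeR), at 8.33 to 13.3 CPM on the left against 15.7 to 27.8 CPM on the right. The others were *Axin2*, a target and feedback inhibitor (-0.48 ± 0.09, adjusted p = 0.0347, edgeR), and the DVL-binding inhibitor *Nkd2* (-0.57 ± 0.11, adjusted p = 0.0448, edgeR). *Ccn4* was also the 1 gene of the 60 whose asymmetry differed between inverted and rightward mutants (1.44 ± 0.27, adjusted p = 0.0184, edgeR, background 0.311%) and between inverted mutants and wild types (1.91 ± 0.32, adjusted p = 0.0102, edgeR, background 0.513%). *Ccn4*, *Axin2* and *Nkd2* are also on the list that the study picked out from these samples. The medians of the 60 genes were -0.02, -0.02 and -0.03 in wild types, rightward mutants and inverted mutants.

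The stretch of 250 bases before the start of the canonical transcript was read from GRCm39 for all 51 members and all 21664 protein-coding genes. Matches to the TCF/LEF core, CTTTGA or CTTTGT, through which beta-catenin acts, were counted on both strands. The TCF/LEF core was in 13 of 51 members (25.5%) and in 27.2% of all promoters. The sequences of *Wnt11* and *Dkkl1* are shown because their asymmetry differed between the mutant groups, and those of *Sfrp5* and *Sfrp2* because these related antagonists took opposite sides. Capitals mark the match, read here on the opposite strand.
Wnt11, chr7:98487802-98488051, plus strand: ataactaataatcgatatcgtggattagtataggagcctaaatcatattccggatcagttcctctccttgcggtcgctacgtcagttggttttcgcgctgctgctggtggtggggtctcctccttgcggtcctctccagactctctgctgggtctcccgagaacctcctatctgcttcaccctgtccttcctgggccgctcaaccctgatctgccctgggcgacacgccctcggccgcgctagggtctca
Dkkl1, chr7:44862505-44862754, minus strand: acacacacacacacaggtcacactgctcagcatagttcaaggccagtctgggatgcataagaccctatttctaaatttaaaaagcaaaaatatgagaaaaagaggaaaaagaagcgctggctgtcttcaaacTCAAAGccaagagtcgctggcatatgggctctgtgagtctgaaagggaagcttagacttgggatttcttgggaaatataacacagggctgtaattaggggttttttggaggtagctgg
Sfrp5, chr19:42190692-42190941, minus strand: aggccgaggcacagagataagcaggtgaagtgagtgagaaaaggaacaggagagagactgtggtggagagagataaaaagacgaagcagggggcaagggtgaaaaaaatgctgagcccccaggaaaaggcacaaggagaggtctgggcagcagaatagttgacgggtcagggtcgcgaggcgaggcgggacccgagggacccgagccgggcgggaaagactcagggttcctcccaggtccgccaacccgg
Sfrp2, chr3:83673231-83673480, plus strand: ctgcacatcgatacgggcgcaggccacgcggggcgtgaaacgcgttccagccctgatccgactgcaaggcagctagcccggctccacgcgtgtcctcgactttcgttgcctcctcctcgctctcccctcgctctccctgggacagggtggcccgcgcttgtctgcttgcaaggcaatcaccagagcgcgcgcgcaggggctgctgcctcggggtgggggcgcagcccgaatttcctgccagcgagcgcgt
The match of *Dkkl1* started 118 bases before the start. The stretches of *Wnt11* and *Dkkl1* lie in introns of longer transcripts of their genes. The stretches of *Wnt11*, *Sfrp5* and *Sfrp2*, like those of *Wnt2*, *Rspo3* and *Fzd10*, did not hold the core. A match is a description of the letters and says nothing of binding here.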

How the data were processed

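RNA was sequenced from paired left and right heart fields, by a poly-A, low-input protocol from 10 ng of RNA. The authors aligned reads to GRCm39 with STAR, removed duplicates and counted them with featureCounts (Subread 2.0.6), and the counts per gene were deposited without scaling. The strand setting is not given in the sources used here. Genes were named by GENCODE M39, which held 56310 of 56953 identifiers.

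Counts were filtered by filterByExpr, with 10 as the least total, 5 as the least count, 0.2 as the least proportion and 50 as the large group size, scaled by TMM and tested by the quasi-likelihood test of edgeR 4.0.16 in R 4.3.3. P-values were adjusted over all genes tested. Right over left carried the embryo as a block, since the titles name the embryo of both sides. Residuals of both sides of an embryo correlated with a median of 0.311 (-0.0849 to 0.747), over 0.1 in 19 of 21 embryos. Differences of asymmetry were interactions of side and group over the 42 libraries, with embryos as blocks, and levels were compared on each side with sex as a covariate. CPM used effective library sizes, and ratios per embryo a prior count of 2. Relations with markers were tested by 100000 permutations, two-sided. Alternatives were DESeq2 1.42.0, its size factors, other filters, no block, 1 fit of all libraries, males alone, no sex term and each embryo left out. Embryos 2_2 and 10_1 were left out together after seeing the data. Tests were also run on simulated counts that held some genes changed by a known fold. Each gene had the same mean in every embryo there, so these runs do not cover outlying embryos. Groups came from genotype and looping labels, and replicates are embryos.

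Named genes are members that passed any test, up to 5 per test of asymmetry with the largest fold change at a mean of at least 20 counts and, within a group, the same direction in every embryo, the 3 highest per kb in each role, and 7 of those that the study names. Exceptions are members named for an unadjusted p, for a DESeq2 call, for a count of 0 or as neighbours in level. The members and lists were chosen with earlier results of these data known.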

Additional observations from a re-analysis of the deposited data

Results flagged for a closer look

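In wild types, embryo 10_1 lay far from the other 4 for 3 of the named genes, with a log2 right over left of -0.89 for *Lrp5*, -0.84 for *Ror2* and 2.55 for *Wnt16*. Heart muscle markers were also low on the right of this embryo. In inverted mutants, embryo 10_3 lay far from the others for *Fzd10*, with -0.27. This made 4 outlying ratios, in 2 embryos, over 51 groups of 5 ratios checked. Chance flags about 1 in 20 groups, and groups that share an embryo are not independent.

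The asymmetry of *Wnt11* differed between inverted and rightward mutants by 1.92 on the log2 scale, and that of *Dkkl1* by 1.59, both tested as an interaction.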

How the results depend on the processing

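The count of members past the threshold depended on the test and on single embryos. In inverted mutants it was 6 (468 of 22960 genes in all), and it was 13 by DESeq2 (1755 genes in all) and 10 with no filter on low counts (942 of 39695). It was 0 in males alone, who were 3 embryos (53 of 23080), 0 in 1 fit of all 42 libraries (141 of 26335) and 2 to 7 with each embryo left out (138 to 446 genes in all). Without the replicate block it was 2, *Wnt11* and *Sfrp5* (305 genes in all). For the difference between inverted and rightward mutants it was 2 (82 of 26335 genes in all), and it was 4 by DESeq2 (456), 1 with at least 10 counts in every library (66 of 16278), 0 in males alone (7 of 26673), 1 without the block (17) and 0 to 3 with an embryo left out (18 to 158). For inverted mutants against wild types it was 0 (135 genes in all), and it was 8 by DESeq2 (911), 2 with no filter (207 of 44834), 1 with at least 10 counts in every library (199 of 16278) and 0 to 4 with an embryo left out (17 to 641). DESeq2 also called 1 member in wild types, *Sfrp1*, and 1 in the level on the left of inverted against rightward mutants, *Wnt11*. The block moved no other count of members. Removing embryos 2_2 and 10_1 together, which was run for tests of asymmetry alone, moved none of their counts. No named gene that passed changed direction under an alternative. Whether genes with counts near 0, such as *Wnt10b* and *Dkk4*, are sided was not detectable at this depth. The cause of these changes was not tested.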

Other observations

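*Sfrp4*, a secreted antagonist, had the widest fold between its lowest and highest library, 0.266 and 26.7 CPM, among the 10 antagonists with no library at 0. In inverted mutants it had medians of 0.562 CPM on the left against 1.23 CPM on the right, and in rightward mutants 3.01 and 1.69 CPM. Its level on the left was -2.28 on the log2 scale in inverted against rightward mutants, which did not pass (unadjusted p = 0.0077, edgeR) and makes it 1 of the 13 members counted there. The rightward mutant 15_5 had 24.0 CPM on the left and the other 10 had 0.723 to 5.99 CPM, and without 15_5 the value was -1.70 ± 0.68 (unadjusted p = 0.0202, edgeR). It was named after its values were seen.

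*Fzd9*, a receptor of neural tissue, read 3.375, 3.48, 1.65, 3.48 and 8.07 CPM on the left of the inverted mutants 10_3, 18_2, 2_7, 32_2 and 4_6 and 5.54, 0.479, 1.23, 0.111 and 1.005 CPM on the right. The left was higher in 4 of 5, and the fold change of -1.83 ± 0.73 did not pass (adjusted p = 0.281, edgeR).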
